A study of Homo sapiens with 6 samples.

Results

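The small nuclear RNAs (snRNAs) of the minor spliceosome are U11, U12, U4atac and U6atac, listed under the gene names RNU11, RNU12, RNU4ATAC and RNU6ATAC. They were taken by gene name, with pseudogenes left out, and 4 of the 142 RNAs of the table were members, 1 row for each gene. All 6 libraries came from HEK 293T-REx TOE1-degron cells, a human embryonic kidney line in which TOE1, a 3′ exonuclease that trims snRNAs, carries a degron and is broken down when auxin is given. In 3 libraries TOE1 was present (labelled TOE1+), and in 3 it had been depleted (TOE1-) with the auxin indole-3-acetic acid at 600 µM for 8 hours. Both groups received ethynyl uridine at 0.2 mM for 8 hours, so that RNA made in that time could be captured, and what TOE1-present cells were given in place of auxin is not stated in the labels. Whether the line is 1 clone and whether the replicates were separate cultures are not stated either, so p-values measure only how these libraries spread, which may be technical. All 3 TOE1-present libraries and replicate 1 of the TOE1-depleted ones were ligated to a 3′ adaptor called AG10, and the remaining TOE1-depleted libraries, replicates 2 and 3, to AG11. RNA of 100 to 500 nt was taken from a gel, its 3′ ends were ligated, the labelled RNA was captured, and sequencing then read where each new RNA ends and which bases follow that the genome does not encode. Only small RNAs are listed, so neither the loss of TOE1 nor the identity of the line could be checked here.

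The minor spliceosome removes a small class of introns with their own splice sites, found in a minority of human genes. U11 pairs with the 5′ splice site and U12 with the branch point, as U1 and U2 do in the major spliceosome, and the U4atac/U6atac pair then enters with U5, which serves both machines. U11, U12 and U4atac are made by RNA polymerase II, bind a ring of Sm proteins at a U-rich site and receive a trimethylguanosine cap. U6atac is made by RNA polymerase III, ends in a run of U and binds the Lsm ring instead.

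The RNAs are printed here because the 3′ end is what the assay reads. The distance of that end from an Sm-type site was taken from the sequence and was not measured by the assay. The sequences are the sense strand of hg38, 5′ to 3′, written with T for U, at the GENCODE 44 gene bounds. Capitals mark the Sm-type letters, an A, a run of T and a G. RNU11 (ENSG00000274978, 134 nt, plus strand) lies at chr1:28648600-28648733, RNU12 (ENSG00000276027, 150 nt, plus strand) at chr22:42615244-42615393, RNU4ATAC (ENSG00000264229, 127 nt, plus strand) at chr2:121530881-121531007, and RNU6ATAC (ENSG00000221676, 126 nt, minus strand) at chr9:134164439-134164564.
U11: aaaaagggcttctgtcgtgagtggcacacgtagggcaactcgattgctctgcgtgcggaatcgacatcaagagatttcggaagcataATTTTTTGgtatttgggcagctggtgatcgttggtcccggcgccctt
U12: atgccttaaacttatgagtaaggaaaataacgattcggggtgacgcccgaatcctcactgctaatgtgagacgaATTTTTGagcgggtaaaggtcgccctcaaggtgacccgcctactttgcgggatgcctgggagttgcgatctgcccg
U4atac: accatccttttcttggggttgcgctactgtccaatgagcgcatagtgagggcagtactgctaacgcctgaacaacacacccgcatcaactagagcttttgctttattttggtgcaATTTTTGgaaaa
U6atac: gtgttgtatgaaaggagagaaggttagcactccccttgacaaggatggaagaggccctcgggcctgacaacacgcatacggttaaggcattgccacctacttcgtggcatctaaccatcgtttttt

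The letters ATTTTTG were found in U12 and U4atac and the letters ATTTTTTG in U11, while U6atac held neither. These spellings cannot overlap each other. From the last Sm-type letter to the annotated 3′ end there were 39 nt in U11, 69 nt in U12 and 5 nt in U4atac, so the U4atac site lies almost at the end of the RNA. In the last 100 nt of the 173 genes of the table that are at least that long, ATTTTTG was found in 10.98% and ATTTTTTG in 3.47% on the RNA strand, and neither on the other strand. A match is a description of letters, not proof of a binding site.

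The ends themselves differ in what the genome spells next. Below, the last 20 letters of each gene are in lower case and the next 20 letters of the genome in capitals.
U11 end: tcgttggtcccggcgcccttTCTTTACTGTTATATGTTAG
U12 end: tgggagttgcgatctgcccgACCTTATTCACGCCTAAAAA
U4atac end: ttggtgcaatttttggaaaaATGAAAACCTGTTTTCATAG
U6atac end: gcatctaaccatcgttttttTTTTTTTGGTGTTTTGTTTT

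U6atac ends in 6 T and the genome goes on with 7 more, a run of 13, so up to 7 U added to a full-length U6atac would be spelled as the genome is and would not show as untemplated. Of the 189 genes of the table found in GENCODE, 0.529%, which is U6atac alone, end in 6 T. U4atac ends in 4 A and is followed by 1 more A, and for U12 the next genomic letter is an A, so a single A added to either end is spelled as the genome is. The next genomic letter after U11 is a T, so a single U added there is spelled as the genome is too. The position of the end also depends on the annotation. RefSeq places the U11 end 1 nt and the U4atac end 2 nt further downstream than GENCODE, and the U12 and U6atac ends at the same base.

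**Figure D1:**
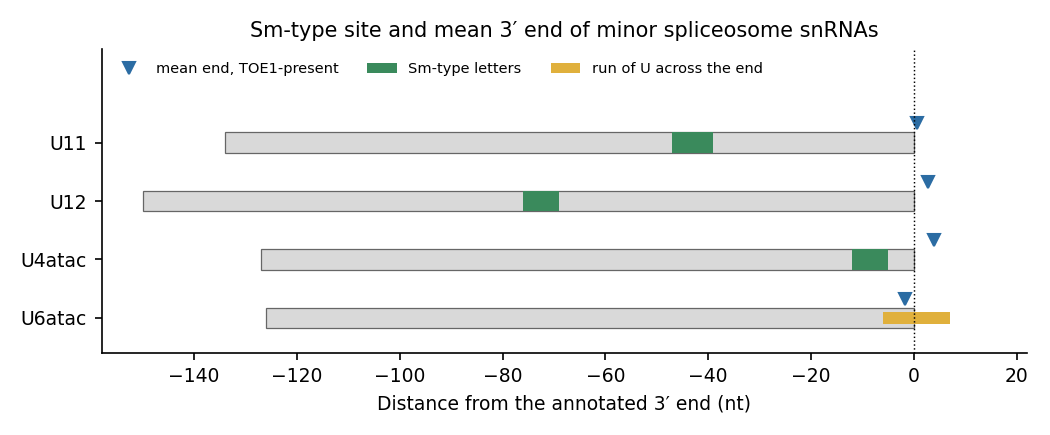
Map of the 4 RNAs aligned at the annotated 3′ end (x axis, nt from that end; grey bars, gene length). Green marks the Sm-type letters, which lie 39, 69 and 5 nt before the end in U11, U12 and U4atac; yellow marks the run of 13 U across the U6atac end; triangles mark the mean end in TOE1-present cells, from −1.67 nt in U6atac to 4 nt in U4atac.

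RNU11, RNU12 and RNU4ATAC share their loci with other annotated genes, and reads of overlapping genes cannot be told apart by position alone. RNU11 is covered on the same strand by an exon of the long noncoding RNA gene ENSG00000270103 (chr1:28648600-28648730), and RNU12 by an exon of ENSG00000270022 (chr22:42615244-42615907). RNU4ATAC lies in an intron of CLASP1 on the opposite strand and in an intron of CLASP1-AS1 on its own strand. RNU12 also lies in an intron of the protein-coding gene ENSG00000289517 on the opposite strand, and RNU6ATAC overlaps no other gene. None of these genes has a row in the table. The last 40 nt of U11, U12 and U4atac each match the genome at 1 place, their own, and those of U6atac at 2 places, 1 of them elsewhere. The sources used here do not say how reads with several matches were treated.

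The libraries held 32813 to 75353 reads over all 142 rows. Reads of RNase MRP RNA, 7SK and U2 were divided among gene models differently in replicate 1 of both groups, which touches the scaling between libraries. The rows known to be concerned include none of the minor snRNAs. Whether reads of minor snRNAs moved to overlapping gene models that have no row was not tested. Together the 4 minor snRNAs had 539 to 1010 reads per library. U6atac ranked 16th of 142 rows by reads (3162 in all), U12 27th (1088), U11 90th (101) and U4atac 129th (27).

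Each read reports 1 RNA 3′ end, whatever the length of the RNA. Reads of the minor snRNAs stood in the same order in all 6 libraries. U6atac came first, then U12, then U11, and U4atac last, and the order was the same per length, at 2510 reads, 725 reads, 75.4 reads and 21.3 reads per 100 nt of gene over all libraries. U11 and U12 form 1 particle, and U4atac and U6atac pair with each other, yet U12 had 7.83 to 26.8 reads for each U11 read and U6atac had 69.4 to 541 for each U4atac read. Capture rests on ethynyl uridine, and the RNAs hold similar shares of U: 27.6% in U11, 24.0% in U12, 29.9% in U4atac and 24.6% in U6atac. The part that labelling, ligation or counting plays in the order was not tested. In these bulk libraries fewer new molecules of an RNA per cell and fewer cells making that RNA cannot be told apart.

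None of the minor snRNAs changed in abundance past the threshold when TOE1 was depleted, and each had overlapping groups. For U6atac, the catalytic partner that replaces U6, there were 486, 389 and 404 reads with TOE1 and 613, 541 and 729 without it. Scaled by TMM (trimmed mean of M-values, a correction for library composition) to CPM, a share of the library's counts, that was 11483.5, 12119.8 and 13769 CPM against 9009.7, 13083 and 8970.2 CPM. TOE1-depleted replicate 2 lay inside the TOE1-present range and the other 2 below it. The means were 12457 ± 1179.7 and 10354 ± 2363 CPM (SD, n = 3 per group), a log2 change of −0.27 ± 0.21 SE (95% interval −0.77 to 0.24, edgeR quasi-likelihood test, adjusted p = 0.4995).

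U12, which pairs with the branch point, had 176, 130 and 134 reads with TOE1 and 227, 168 and 253 without it, or 4159, 4050.3 and 4567 CPM against 3336, 4063 and 3113 CPM. As with U6atac, replicate 2 was the TOE1-depleted library that reached the TOE1-present range. The means were 4259 ± 272 and 3504 ± 497 CPM (SD, n = 3 per group), a log2 change of −0.28 ± 0.14 SE (95% interval −0.61 to 0.04, edgeR adjusted p = 0.242).

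U11, the 5′ splice site RNA, had 11, 16 and 5 reads with TOE1 and 29, 18 and 22 without it. On the TMM scale these were 259.9, 498 and 170.4 CPM against 426, 435 and 271 CPM, so the groups overlap and TOE1-present replicate 2 is the highest of the 6 libraries. The log2 change was 0.26 ± 0.42 SE (95% interval −0.76 to 1.27, edgeR adjusted p = 0.851), an interval that holds more than a doubling. U4atac had 7, 4 and 2 reads against 7, 1 and 6 and failed the low-count filter. Its means were 119 ± 48.8 and 67.0 ± 39.8 CPM (SD, n = 3 per group), with TOE1-depleted replicate 2, which had 1 read, the lowest library and groups that overlap. Fitted without the filter, the log2 change was −0.81 ± 0.56 SE (95% interval −2.14 to 0.53, edgeR adjusted p = 0.482).

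Of the 3 members that passed the filter, 0 were called by edgeR, where 7.92% of the 101 RNAs tested were (18 RNAs in place of 8 with the replicate number as a block), and 0 had an unadjusted p under 0.05, where 27.7% had. DESeq2 called 0 of the 3 as well. Over the same 101 RNAs 31.7% had groups that did not overlap on the TMM scale, and none of the 4 members did. The direction for U12 and U6atac depends on the scaling: by library totals alone the log2 changes were 0.28 and 0.30, but the median RNA then stood at 0.63, against 0.08 with TMM. Relative to that median U12 was at −0.36 with TMM and at −0.35 by library totals, and U6atac at −0.34 and −0.33. Within the libraries ligated to AG10, 3 with TOE1 and 1 without, the log2 changes were −0.38 for U12, −0.49 for U6atac and 0.43 for U11, with edgeR adjusted p from 0.304 to 0.7003; the lone library is assumed to vary like the others.

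**Figure D2:**
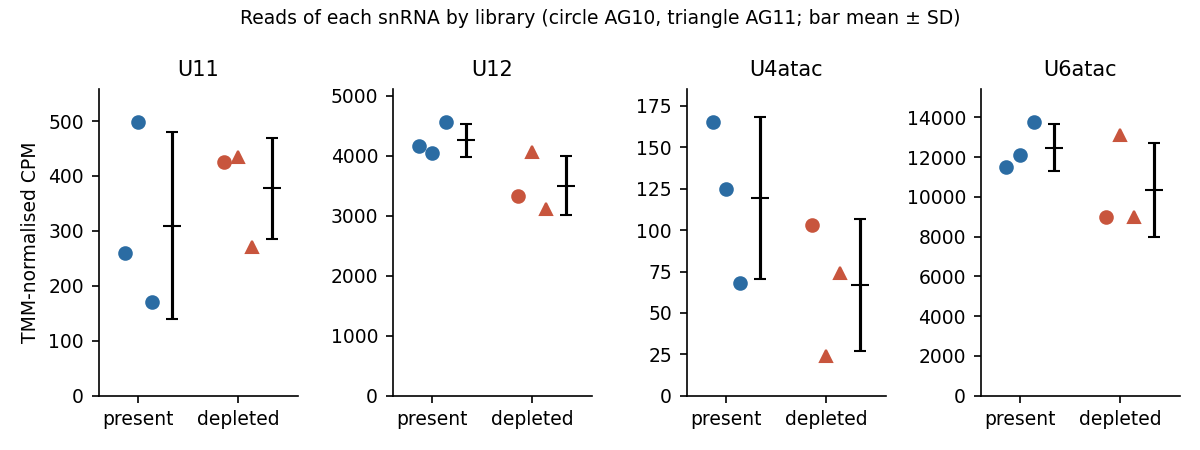
TMM-normalised CPM (y axis, from 0, a scale per panel) of each minor snRNA in the 3 TOE1-present (blue) and 3 TOE1-depleted (red) libraries; circles are AG10, triangles AG11, and bars the mean ± SD. In each panel the groups overlap, and for U12 and U6atac TOE1-depleted replicate 2 (the left triangle) lies above the other TOE1-depleted libraries.

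A ratio of counts within 1 library needs no scaling, and that of U6atac to U12 was nearly constant. There were 2.76, 2.99 and 3.01 U6atac reads per U12 read with TOE1 and 2.7, 3.22 and 2.88 without it. The log2 ratio was 1.54 ± 0.07 and 1.55 ± 0.13 (SD, n = 3 per group; difference 0.004, exact 2-sided permutation test, p = 1, adjusted p = 1 over 1 pair). With 3 against 3 the exact test cannot go below p = 0.1. This was the 1 pair of members with at least 10 reads in every library; the log2 ratios of the other 5 pairs differed by −1.25 to 0.62 between groups, had groups that overlapped, and were not tested.

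Set against the RNAs that do the same work in the major spliceosome, the minor snRNAs had fewer reads, except U6atac. These ratios were chosen after the values had been seen. There were 67.6 to 183.8 U1 reads for each U11 read, 40.1 to 53.7 U2 reads for each U12 read, and 3.86 to 46 U4 reads for each U4atac read. U6atac, in contrast, had 1.39 to 4.14 reads for each read of the merged U6 row, so its reads exceeded those of U6 in every library. What part gel sizing, labelling, ligation or counting plays in these ratios was not tested. The log2 ratio of minor to major RNA differed between groups by 0.38 for U11, 0.22 for U12, −1.37 for U4atac and −0.34 for U6atac. With 1 library left out at a time they ran from 0.097 to 0.77 for U11, 0.15 to 0.34 for U12, −1.84 to −0.79 for U4atac and −0.73 to 0.0597 for U6atac, whose sign turned without TOE1-depleted replicate 1. All 4 ratios had overlapping groups (exact 2-sided permutation test, n = 3 per group, p from 0.2 to 0.6, each 0.6 when adjusted over the 4). The minimum of 10 reads in every library was not applied here, and U11 had 5 reads and U4atac 1 read in their lowest libraries. Some U2 reads sit on a further gene model, AC024051.4; with them counted, there were 41.6 to 109.8 U2 reads for each U12 read, the highest values in replicate 1 of each group, and the log2 difference was −0.03 in place of 0.22.

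The 3′ ends in TOE1-present cells lay close to the annotated ends. In the authors' deposited table the mean end was at 0.62 nt for U11, 2.81 nt for U12, 4 nt for U4atac and −1.67 nt for U6atac, where positive positions are downstream and ends from −10 to 50 nt were counted. The median end in the authors' deposited table was at 0, 1, 3 and −2 nt in the same order. U6atac was the one member that ended short of its annotation, inside its run of U. Against the RefSeq ends, the mean end was upstream of the U11 end and still downstream of the U12 and U4atac ends. The header does not say whether untemplated bases count in these positions, and the table gives end positions per condition only, not per library.

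Between TOE1-depleted and TOE1-present cells, the genome-templated ends of U11 and U12 differed downstream by nearly the same distance, and neither difference passed the adjusted threshold of 0.05. As 2 of 3 TOE1-depleted libraries carried AG11, adaptor and TOE1 cannot be told apart in any end or tail value, all of which are per condition. The authors' deposited table put the U11 end 0.76 nt downstream (95% interval recovered from the deposited p, 0.21 to 1.30 nt; unadjusted p = 0.0183, adjusted p = 0.282) on 101 reads. For U12 the difference in the authors' deposited table was also 0.76 nt (0.06 to 1.46 nt; unadjusted p = 0.0395, adjusted p = 0.358) on 1088 reads. These RNAs ranked 15th and 14th of 139 by the size of the downstream difference, and limma's moderated test gave adjusted p of 0.211 and 0.259. The next genomic letter is a T after U11 and an A after U12. A single such base added at the annotated end would count as templated.

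U6atac, which carries no Sm ring, was the member with the narrowest interval, and the authors' deposited table put its genome-templated end at a difference of 0.07 nt (−0.18 to 0.32 nt; adjusted p = 0.833) on 3162 reads. This interval leaves out a shift of the size estimated for U11 and U12, but theirs reach down to 0.21 and 0.06 nt, and the difference between members was not tested. The U4atac end, 5 nt behind its Sm-type letters, differed by 0.996 nt according to the authors' deposited table, with an interval of −7.70 to 9.69 nt that leaves its direction unknown (adjusted p = 0.912, 27 reads).

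Of the 4 members, 0 were called for the genome-templated end, where 2.16% of the 139 RNAs with a p were. Downstream differences with an unadjusted p under 0.05 were found for 2 of 4, where 5.76% of all RNAs, 8 of 139, had one. Upstream differences at that level were found for 0 of 4, and for 10 of 139 RNAs. All 4 differences were above 0, against 53 of 139 RNAs, and the median was 0.757 nt against −0.102 nt. The major counterparts also lay mostly above 0, with 5 of 6 rows above and 1 below and a median of 0.535 nt. Among the 6 rows of the major counterparts 2 were called, both downstream: U1 at 0.89 nt (0.70 to 1.08 nt, adjusted p = 0.009999) and U2 at 2.26 nt (1.97 to 2.56 nt, adjusted p = 0.00403), both values of the authors' deposited table. U5, which serves both spliceosomes, stood the other way in the authors' deposited table, at −2.35 nt (−3.69 to −1.01 nt, unadjusted p = 0.00817, adjusted p = 0.189). The estimate for U11 was thus near that of U1 and its interval wider, while the intervals of U12 and U2 did not overlap. The difference within each pair was not tested. The deposited Kolmogorov-Smirnov p is headed as a median, over what is not stated, and such a test counts each read as a replicate. The Kolmogorov-Smirnov test gave U12 an adjusted p of 2.84e-08 from the authors' deposited table and U11 one above the threshold. By it 1 of 4 members was called, where 9.22% of 141 RNAs were.

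**Figure D3:**
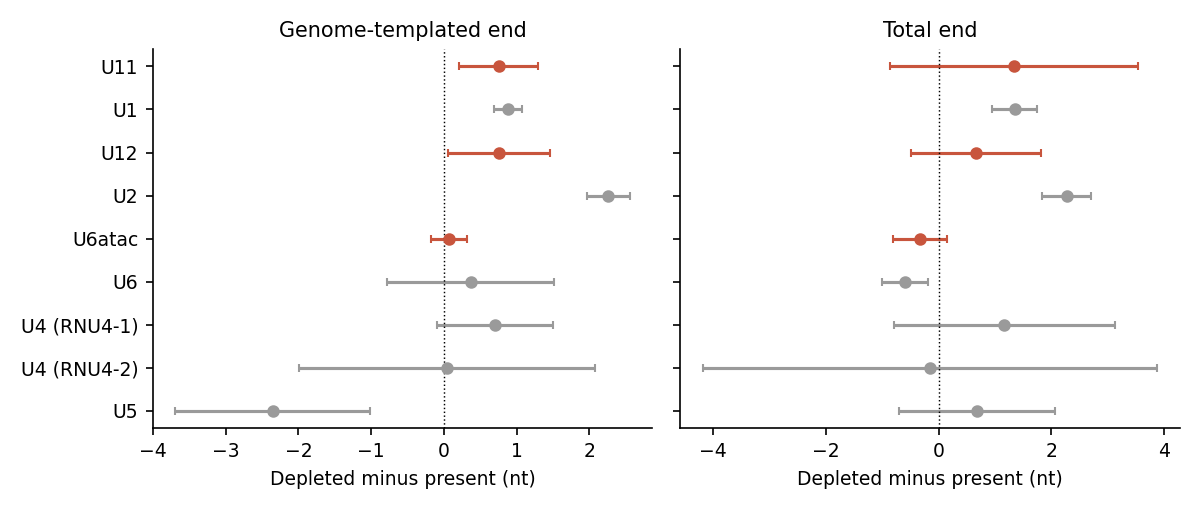
Change of the genome-templated end (left) and of the total end with its tail (right) in TOE1-depleted relative to TOE1-present cells (x axes, nt), with 95% intervals recovered from the deposited p; minor snRNAs in red, major counterparts in grey, U4atac left out because its intervals run from −9.26 to 27.2 nt. On the left U11 and U12 both sit at 0.76 nt and U6atac at 0.07 nt.

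The total end adds the untemplated tail, and for no member did its difference pass. The authors' deposited table gave U11 a difference of 1.34 nt (−0.86 to 3.54 nt, adjusted p = 0.605), of which 0.58 nt were untemplated bases. For U12, the authors' deposited table gave 0.66 nt (adjusted p = 0.615, interval −0.49 to 1.81 nt), less than its templated part, since its tails were 0.097 nt shorter. For U6atac it was −0.33 nt by the authors' deposited table (adjusted p = 0.557, interval −0.81 to 0.16 nt), the sign opposite to that of its templated end, with tails 0.398 nt shorter.

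U4atac had the second largest total-end difference of the 139 RNAs, 8.98 nt by the authors' deposited table, and the interval was wide (−9.26 to 27.2 nt, adjusted p = 0.713). Nearly all of it, 7.98 nt, was untemplated, by the same table. Of the 4 members 0 were called for the total end, where 2.16% of RNAs were, and 0 had an unadjusted p under 0.05, where 7.91% had. The deposited Kolmogorov-Smirnov test, which counts reads as replicates, called U12 and U6atac, 2 of 4, where it called 17.0% of 141 RNAs.

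**Figure D4:**
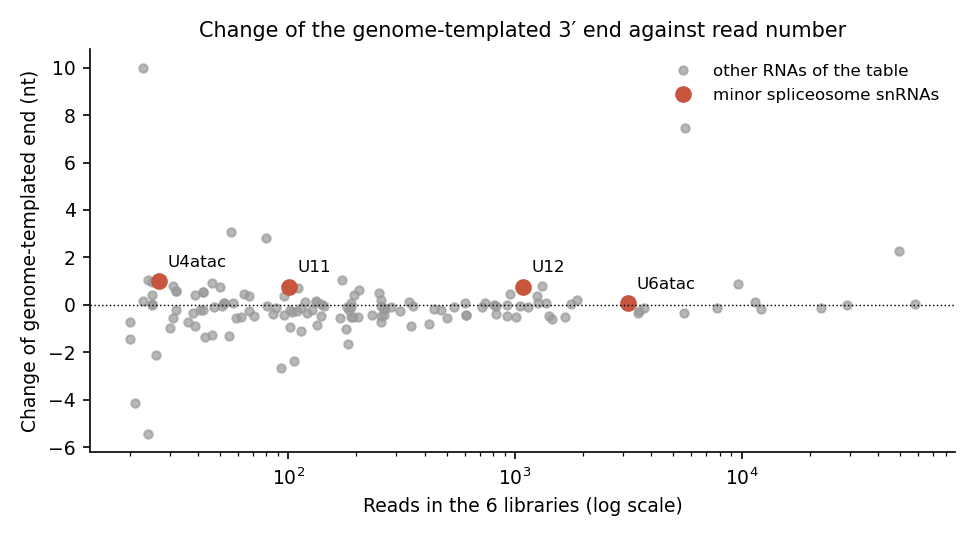
Change of the genome-templated end (y axis, nt, TOE1-depleted minus TOE1-present) against reads in the 6 libraries (x axis, log scale) for the 139 RNAs with a p; minor snRNAs in red. U11, U12 and U4atac lie at 0.76 to 0.996 nt and U6atac at 0.07 nt. The scatter of most other RNAs narrows as reads increase, but U2 stands at 2.26 nt on 49497 reads. Another RNA stands at 7.47 nt on 5603 reads.

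The share of reads with an A tail had a lower value in TOE1-depleted cells for each of the minor snRNAs, and none of these differences passed. With TOE1, U6atac carried the most of the 4 members: by the authors' deposited table, 44.7% of its reads had a tail of 1 or more A. Without TOE1 its share was 17.9% (difference −26.7 percentage points, interval −55.7 to 2.20, adjusted p = 0.214), below those of U11 (28.7%) and U12 (19.8%). Nearly all A tails of U6atac were a single A, which the authors' deposited table puts at 41.6% and 16.02% of reads, the fourth highest TOE1-present share among 90 RNAs with at least 100 reads. A bases per U6atac read were 0.830 nt with TOE1 and 0.460 nt without it by the authors' deposited table (−0.70 to −0.04 nt, unadjusted p = 0.0345, adjusted p = 0.338), 1 member of 4 with a lower value at that level, where 9.49% of 137 RNAs had one. The authors' deposited table lists tails of 2 or more A on 3.03% and 1.90% of U6atac reads.

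The RNA polymerase II members had smaller estimated differences of the same sign, and the difference between members was not tested. The authors' deposited table gave the share with 1 or more A as 35.9% with TOE1 and 28.7% without it for U11 (−14.9 to 0.59 percentage points, adjusted p = 0.214). For U12 the values of the authors' deposited table were 27.3% and 19.8% (−21.8 to 6.79 percentage points, adjusted p = 0.381). For U4atac, with 13 and 14 reads, the authors' deposited table gave 26.2% and 11.1% (−65.8 to 35.6 percentage points, adjusted p = 0.566). A single A added at the annotated U12 or U4atac end matches the genome and would not show in these shares. All 4 members were lower, as were 99 of 128 RNAs, and the median difference was −11.3 percentage points in the members and −9.57 over all RNAs. In the major counterparts 3 rows were lower (U2, U5 and U6) and 3 higher (U1, RNU4-1 and RNU4-2).

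**Figure D5:**
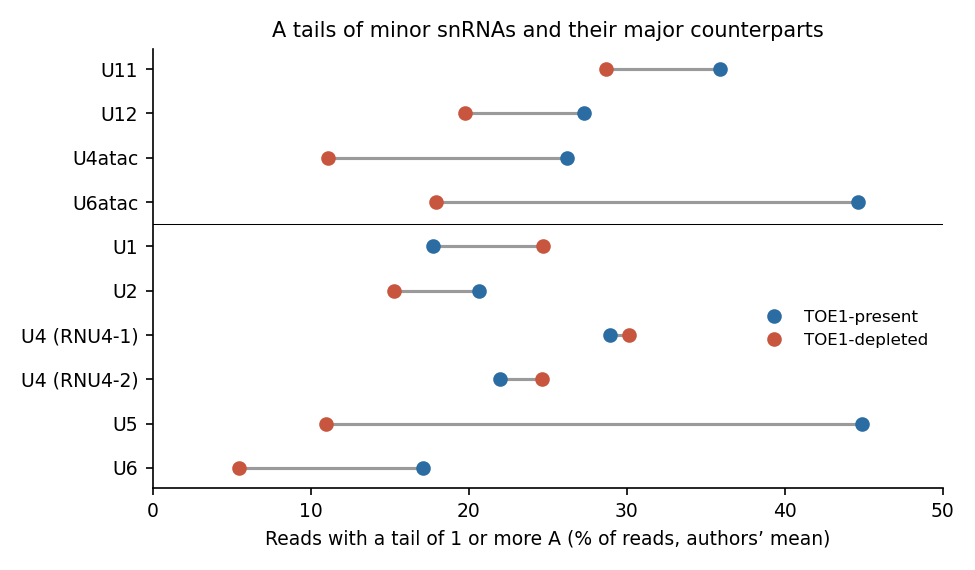
Share of reads with a tail of 1 or more A (x axis, percent, the authors' mean over libraries; no error shown) in TOE1-present (blue) and TOE1-depleted (red) cells, minor snRNAs above the line and major counterparts below. In all 4 minor snRNAs the TOE1-depleted share is the lower, from 44.7% to 17.9% in U6atac, and none of these differences passed the adjusted threshold.

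Longer A tails did not share one direction. The authors' deposited table puts tails of 3 or more A on 3.54% and 4.20% of U12 reads, and on 0.611% and 0.185% of U6atac reads, with and without TOE1 (adjusted p = 0.768 and 0.526). U11 had none in either group in the authors' deposited table; with 32 and 69 reads that allows a share of up to 9.38% and 4.35%. Tails of 2 or more A on U11 were listed by the authors' deposited table at 3.03% and 6.03% (adjusted p = 0.6396), and those on U12 at 5.30% and 5.17% (adjusted p = 0.957). U4atac had the highest shares of 3 or more A among the members, 21.4% and 11.1% by the authors' deposited table (adjusted p = 0.768), on 13 and 14 reads.

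Tails with both A and U were found on 5.11% and 4.52% of U11 reads, 1.13% and 0.529% of U12 reads, and 0.57% and 0.1001% of U6atac reads, with and without TOE1, by the authors' deposited table (adjusted p from 0.522 to 0.892). All 3 shares had lower values without TOE1, and U4atac, at 0% and 5.56%, had a higher one. Of the 41 RNAs with a p, 19 were lower and 22 higher.

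U tails were under 1% of reads in U12 and U6atac. U11 had 0% with TOE1, which 32 reads limit to 9.38%, and 7.55% without it by the authors' deposited table (95% interval from −1.07 to 16.2 percentage points, adjusted p = 0.673). As the next genomic letter is a T, a single U added at the annotated U11 end would not show in these shares. The authors' deposited table has 0.189% and 0.4103% for U12. U6atac, whose homologue U6 is known to be oligouridylated, had 0.237% and 0.702% with 1 or more U by the authors' deposited table, all of them with 2 or more (adjusted p = 0.673). Tails of exactly 1 U were 0% in both groups for U6atac in the authors' deposited table, with limits of 0.235% and 0.159%; as the printed end shows, added U match 7 further genomic T. Such limits cover counting error only.

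The mixed tails of U4atac were longer than those of the other members in value, with no test of that difference. Summed over the authors' deposited table, untemplated bases were 3.25 nt per read with TOE1 and 11.2 nt without it, with G from 0.667 to 4.16 nt, U from 0.417 to 2.43 nt, A from 2 to 3.58 nt and C from 0.167 to 1.06 nt. Each interval included 0, and the adjusted p ran from 0.657 to 0.786. These values were read as means that weigh each library equally. The 1 read of TOE1-depleted replicate 2 then counts as much as the 7 reads of replicate 1 or the 6 of replicate 3. The authors' deposited table has the other members near 1 nt per read, at 0.928 and 1.51 nt in U11, 0.924 and 0.827 nt in U12, and 1.43 and 1.03 nt in U6atac, beside a median of 0.926 nt with TOE1 in RNAs with at least 100 reads. Long values were also found among the counterparts, where by the authors' deposited table RNU4-2 had 4.28 and 4.09 nt and U5 had 0.915 and 3.95 nt. Over the 13 tail measures the members had 42 values with a p. None passed the adjusted threshold, where 0.269% of all such values did, and 1, the A bases of U6atac, had an unadjusted p under 0.05, where 9.94% had.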

How the data were processed

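The authors deposited 1 table of 142 RNAs with raw read counts for each of 6 libraries and, per condition, end positions, tail measures and p-values, per the file headers. Reads were aligned with STAR 2.7.8a to hg38, going by the submitters' processing notes; the annotation and the handling of multi-mapped or duplicate reads are not stated in the labels or headers. TE and GE in the headers were read as the total and the genome-templated end, since TE minus GE equalled the summed tail bases to within 1e-06 nt in 142 of 142 rows. Shares and positions were read as means over libraries that weigh each library equally.

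Deposited p-values were adjusted by Benjamini-Hochberg over all RNAs with a p (139 for each end), with a threshold of 0.05. The deposited differences and p-values together gave the standard errors and 95% intervals. Abundance was fitted over the whole table with edgeR 4.0.16 (quasi-likelihood, TMM, filterByExpr, which removed 41 rows), with DESeq2 1.42.0 as an alternative, in R 4.3.3. The alternative test of ends and tails was the moderated test of limma 3.58.1. Scripts were tested on simulated data. Log2 ratios within a library used a pseudocount of 0.5 reads. Sequences came from hg38 and GENCODE 44. The members, lists and tests were chosen with earlier results of these data known; the RNAs named are the 4 members and, beside them, their counterparts U1, U2, U4, U5 and U6.

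Replicate numbers recur in both groups. Deviations of same-numbered libraries from their group means correlated at 0.917, 0.128 and 0.838 over the RNAs tested, but at 0.0413, −0.0584 and 0.056 without the 4 rows of RNase MRP, 7SK and U2 whose reads moved between gene models. The labels name no shared culture or day, so the block was an alternative only, and it changed no call of a member.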

Additional observations from a re-analysis of the deposited data

How the results depend on the processing

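No member was called in any end, tail or abundance comparison under any alternative run on library means or counts. With the deposited Kolmogorov-Smirnov p, which counts reads as replicates, 1 member was called for the genome-templated end (U12) and 2 for the total end (U12 and U6atac). For abundance, library totals alone turned U12 to a log2 change of 0.28 and U6atac to 0.30. Leaving out 1 library gave −0.0286 to 0.69 for U11, reversed without TOE1-present replicate 3, −0.41 to −0.20 for U12 and −0.48 to −0.17 for U6atac; members called stayed at 0. The log2 ratio of U6atac to U12 differed by −0.0649 to 0.0616 with 1 library left out and by −0.11 in AG10 libraries. That of U6atac to U6 ran from −0.73 to 0.0597, the sign turning without TOE1-depleted replicate 1, and that of U12 to U2 was −0.0271 with AC024051.4, an alternative chosen after seeing the data. With the replicate block the log2 changes were 0.35 for U11, −0.29 for U12 and −0.29 for U6atac, and no call changed. Over the whole table edgeR called 8 RNAs (5 higher, 3 lower), against 31 (all higher) by library totals, 18 (8 higher, 10 lower) with the block, 18 (6 and 12) without the rows that moved between gene models, 18 (5 and 13) by DESeq2, 5 without the filter, 0 with the adaptor as a term or in AG10 libraries alone, and 0 to 2 with a library left out. End and tail values per library were not in the table, so leaving out a library or pairing could not be run for them. U4atac and U11 rest on 27 and 101 reads.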
